A study of Mus musculus with 43 samples.

Results

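The genes described here encode the enzymes and remodellers that write, erase or move chromatin marks in neurons: histone deacetylases, lysine demethylases and methyltransferases, DNA methyltransferases and TET dioxygenases, and the ATP-dependent remodellers of the CHD, SNF2 and BAF groups with their ARID-domain relatives. They were chosen by gene symbol. Members had a symbol beginning with Hdac, Kdm, Chd, Kmt, Setd, Dnmt, Tet or Arid and a digit, or were Setdb1, Setdb2 or a Smarca to Smarce gene, lay on an autosome or the X chromosome, and reached 1 CPM (a count scaled to the total of its library) in at least 6 libraries of each RNA table. Of 96 genes whose symbols matched, 84 of the 53379 genes in the tables passed. The other 12 were Kdm5d, which lies on the Y chromosome, and 11 genes with too few counts: Dnmt3l, Arid3c, Dnmt3c, Kdm4dl, the pseudogenes Dnmt3a-ps1, Dnmt3l-ps1, Smarca5-ps and Smarce1-ps1, and the opposite-strand transcripts Dnmt3aos, Dnmt3bos and Kdm6bos. Regions of open chromatin inside the spans of the 84 genes or within 1 kb of their starts numbered 974 of 165184 in the female table and 1057 of 192919 in the male table.

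The series measured nuclear RNA and open chromatin (ATAC-seq, in which a transposase inserts adapters where DNA is accessible) in frontal cortex neurons of Swiss Webster mice. Weaning was at postnatal day 25 and tissue was collected at 2 months of age. Enriched mice (EE) lived in a larger cage with a wheel, a tube and toys that were changed, and control mice (SH) lived in standard housing. No group carried an added allele or drug. Nuclei of every group were fixed in 1% paraformaldehyde for 20 min and sorted for the neuronal protein NeuN. Each sex had 6 EE and 6 SH libraries of RNA. For ATAC, females had 3 libraries in each housing, and males had 6 in EE and 7 in SH. Each sex was deposited in its own tables, and sex cannot be told apart from whatever else differed between those tables. The labels do not say whether replicates are separate animals, and p-values therefore measure the spread between these libraries, which may be technical. Total counts ran from 10.6 to 15.4 M (mega) in female RNA, 10.4 to 14.6 M in male RNA, 19.1 to 26.3 M in female ATAC and 27.7 to 73.8 M in male ATAC libraries.

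As background, acetyl groups on histone tails loosen chromatin and are removed by histone deacetylases (HDACs). Class IIa HDACs shuttle between cytoplasm and nucleus with neuronal activity and bind MEF2 transcription factors. Methylation of histone H3 at lysine 4 (H3K4) marks active promoters and enhancers, while methylation at lysine 9 (H3K9) or lysine 27 (H3K27) marks silent chromatin. Many KMT and SETD proteins add methyl groups to these or other lysines, and many KDM proteins remove them. DNMT enzymes methylate cytosine, TET enzymes oxidise that mark, and neurons are rich in both forms. BAF complexes exchange subunits when neurons mature. Mutations in many of these genes cause neurodevelopmental disorders in humans.

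By edgeR's quasi-likelihood test, no chromatin enzyme gene and no region of one passed the adjusted threshold of 0.05 in any of the 4 tables. DESeq2 called 4 of 84 member genes in female RNA (121 of 14587 over all genes) and 1 of 973 member regions in female ATAC (122 of 164926). DESeq2 gave an adjusted p to 77 and 387 of these members. It called no member in the male tables, where 54 of the 84 genes had an adjusted p in RNA. Log2 fold changes of EE over SH ranged from -0.24 to 0.36 among the 84 genes in female RNA and from -0.19 to 0.33 in male RNA. The genes nearest to the threshold in females were Hdac5 and Kdm6b, which were higher in EE, and Smarca2 and Chd2, which were lower. In males they were Kmt5c and Kdm7a, both higher in EE. Chd2 pointed in opposite directions in the sexes. In ATAC, 51 of 55 regions of Hdac9 were higher in EE in females.

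The sequences before the starts of Hdac5, Hdac9 and Smarca2 are shown here because the values below turn on these genes. RefSeq promoters of build GRCm38.p6 were held for 65 of the 84 members. Of each only the bases before the annotated start are printed, and the Smarca2 stretch stops before the earlier Ensembl start. Capitals mark matches on either strand to the MEF2 core motif, searched as CTA, 4 letters of A or T, and TA, or to GGGCGG, the GC box; overlapping matches run together.

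Hdac5 (chr11:102230173-102230422, minus strand): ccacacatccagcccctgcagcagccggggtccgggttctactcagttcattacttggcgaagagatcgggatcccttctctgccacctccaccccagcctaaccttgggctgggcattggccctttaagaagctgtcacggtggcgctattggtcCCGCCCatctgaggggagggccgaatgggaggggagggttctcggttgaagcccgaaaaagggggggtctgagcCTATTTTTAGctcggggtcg
Hdac9, start of the longest transcript (chr12:34917096-34917345, minus strand): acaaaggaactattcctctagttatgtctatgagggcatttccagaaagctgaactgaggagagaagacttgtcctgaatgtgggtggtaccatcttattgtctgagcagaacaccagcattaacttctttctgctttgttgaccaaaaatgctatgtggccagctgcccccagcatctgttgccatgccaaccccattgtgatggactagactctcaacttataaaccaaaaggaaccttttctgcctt
Hdac9, internal start (chr12:34528890-34529139, minus strand): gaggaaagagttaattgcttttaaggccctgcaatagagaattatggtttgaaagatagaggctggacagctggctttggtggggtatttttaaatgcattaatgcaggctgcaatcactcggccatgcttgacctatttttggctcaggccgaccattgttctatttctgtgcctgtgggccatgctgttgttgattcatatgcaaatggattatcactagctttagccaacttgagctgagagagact
Smarca2 (chr19:26604910-26605049, plus strand): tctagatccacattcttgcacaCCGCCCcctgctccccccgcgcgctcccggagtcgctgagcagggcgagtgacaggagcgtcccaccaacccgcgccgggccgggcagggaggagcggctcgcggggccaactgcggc

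All 4 stretches lay inside ATAC regions in both tables. The Smarca2 stretch held 16 CG dinucleotides in 140 bases, the Hdac5 stretch 12 in 250, and the Hdac9 stretches 0 and 2. Over all 89 promoters of the 65 members the median was 20 in 250 bases, against 6 over 32851 promoters in the reference. The reference promoters were not filtered by chromosome or by RNA level. Members had to reach 1 CPM, and promoters on chromosome 18 were left out of the member set, so the sets are not matched. GGGCGG occurred in 66.3% of the member promoters and in 32.7% of all promoters. The MEF2 core occurred in 3.37% and 3.27%, among these stretches at Hdac5, and the full cyclic-AMP response element TGACGTCA in 0 of 89 and in 1.55%. These are letter matches in fixed windows.

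The level of each gene was read first in SH libraries, as mean CPM per kb of gene span, because nuclear RNA was counted over introns and exons. The class of H3K4 methyltransferases stood highest, with a median level of 2.12 CPM per kb in females and 1.86 in males over 8 genes. Kmt2e, a SET-domain relative of the MLL proteins, was counted in this class. Kmt2d, an enzyme of enhancer H3K4 methylation, was first of the 84 genes in females at 4.58 CPM per kb. In males it came after Chd3 (4.28 and 4.35). In females it was followed by Chd3 at 4.06, Smarcc2 and Chd5 at 3.61 each, Kmt2a at 3.51, Kmt2e at 3.2 and Chd4 at 3.07. Chd3, Chd4 and Chd5 are the alternative remodelling motors of the NuRD corepressor. Of the DNA methyltransferases, Dnmt3a, the main enzyme of postnatal neurons, had 2.5 CPM per kb and Dnmt3b 0.0434, the lowest of all. Dnmt1, which maintains methylation through cell division, lay between them at 0.665. Tet3 and Tet2 lay at 1.46 and 1.31 and Tet1 at 0.181 in the SH females. The second lowest level, 0.081 for Chd1, rests on an Ensembl span of 1690 kb, against 67.6 kb in RefSeq. The order was nearly the same in males, with a Spearman correlation of 0.98 across 84 genes, which are not independent replicates.

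**Figure D1:**
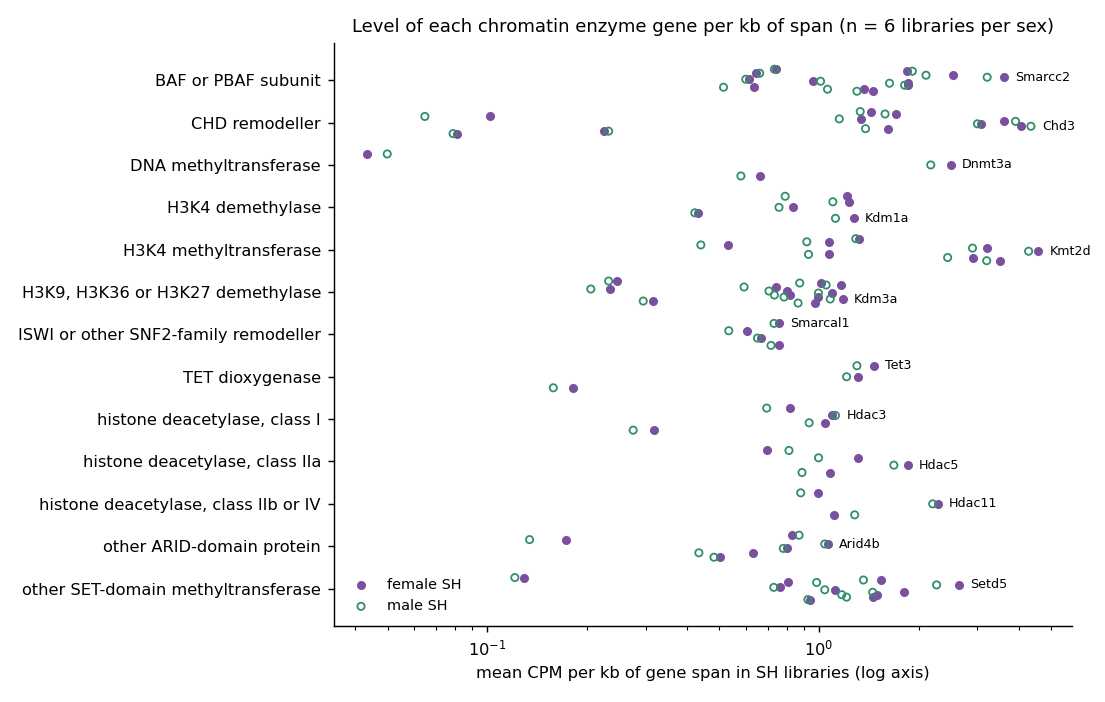
Mean CPM per kb of gene span (log axis) of each of the 84 genes in the 6 SH libraries of each sex, by class; filled points are females, open points males, and the highest gene of each class is named. Kmt2d is highest at 4.58 CPM per kb and Dnmt3b lowest at 0.0434 in females.

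Of the 5 members on the X chromosome, Kdm5c, an H3K4 demethylase known to escape X inactivation, was higher in the female SH libraries (50.4 ± 2.33 CPM, SD, n = 6) than in the male ones (32.8 ± 1.78, n = 6). Female libraries of both housings ran from 45.0 to 53.1 CPM and male libraries from 30.2 to 36.5, so the sexes did not overlap. The log2 ratio of female to male SH means was 0.62 for Kdm5c, 0.32 for Kdm6a, another gene known to escape, 0.24 for Hdac8, 0.17 for Hdac6 and 0.08 for Smarca1. Kdm6a overlapped between the sexes, at 70.4 to 94.6 CPM in females and 65.6 to 75.0 in males. The median was 0.14 over the 79 autosomal members and 0.04 over 13610 autosomal genes tested. Autosomal members ran from -0.29 for Setd6 to 0.66 for Chd7, with Arid3b at 0.54, so ratios as large as those of the X genes also occurred off the X. In all, 10 of 84 members did not overlap between the sexes, each higher in the female tables, and Kdm5c was the only X gene among them. Among 14066 genes tested in each sex, 3.22% were separated in that direction and 1.49% in the other. These levels were scaled within each table.

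In female RNA 0 of 84 genes were called, as were 0 of 14587 genes tested (0.0%), by edgeR's quasi-likelihood test. At an unadjusted p under 0.05 there were 9 members, or 10.7%, against 8.67% of all genes. Of these 5 were higher and 4 lower, where the shares of all genes were 4.53% and 4.14%. Counts of higher members (39 of 84) and their median log2 fold change of -0.02 lay beside 50.6% and 0.00 for all genes. In 3 members, Hdac5, Kdm6b and Chd2, the EE and SH libraries did not overlap, against 0.548% of all genes. In male RNA 0 of 84 members were called against 6 of 14597 genes (0.0411%). At an unadjusted p under 0.05 there were 4 members, or 4.76%, against 8.03% of all genes. All 4 were higher, where 4.09% of all genes were higher and 3.94% lower. This count was 8 (9.52%) without EE replicate 5 (9.56% of all genes), without SH replicate 5 (8.87%) or with total count scaling (8.86%), and 7 with no low-count filter (7.9%). Higher members numbered 45 of 84 with a median of 0.01, beside 47.9% and -0.01 for all genes. With total count scaling they numbered 34 of 84 in males, beside 36.2% of all genes, and 48 of 84 in females, beside 57.8%. In no member did the male groups separate, against 0.541% of genes.

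**Figure D2:**
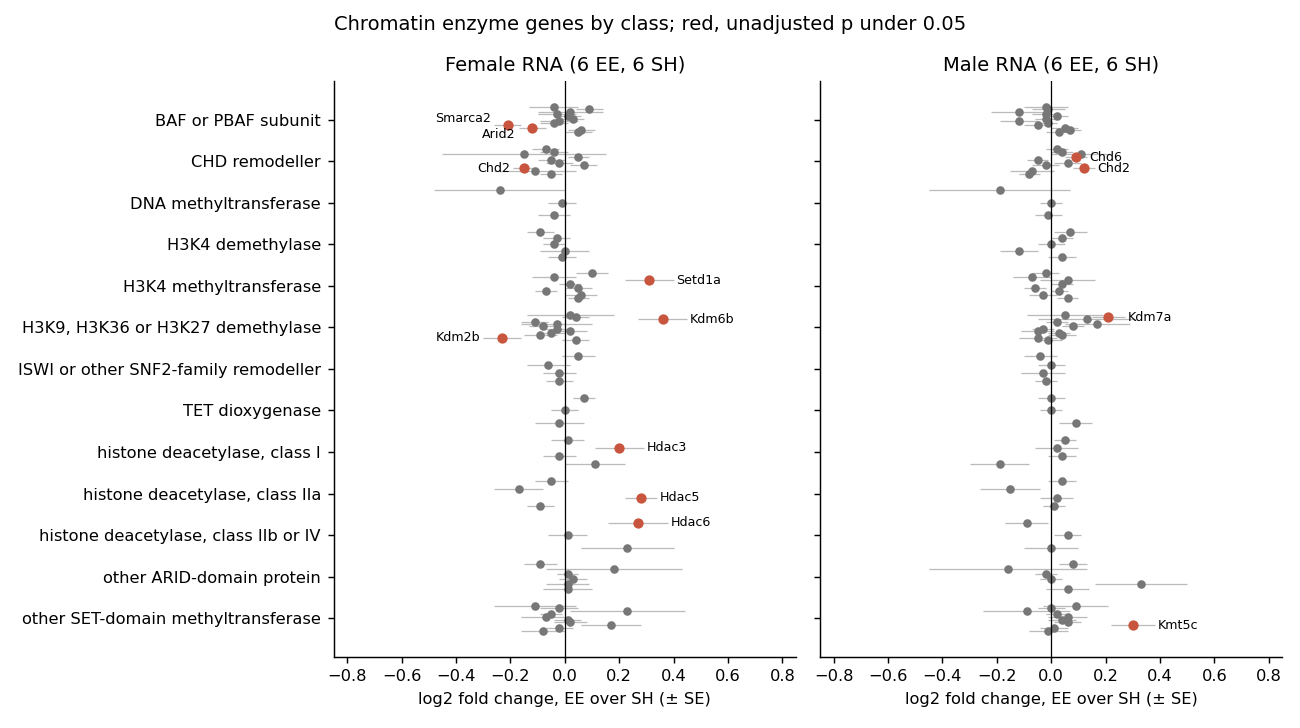
Log2 fold change of EE over SH with its standard error for each of the 84 genes (points) by class, in female RNA (left) and male RNA (right), 6 libraries a group; red points have an unadjusted p under 0.05. There are 9 red genes in females, from -0.23 for Kdm2b to 0.36 for Kdm6b, and 4 in males, all above 0.

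Among the 11 histone deacetylases, Hdac5 was the member with the smallest p in females. Its EE libraries ran from 71.7 to 89.0 CPM with a median of 79.5, and its SH libraries from 57.2 to 71.4 with a median of 67.3. Every EE library lay above every SH library. The log2 fold change was 0.28 ± 0.06 (SE; edgeR quasi-likelihood adjusted p = 0.153). In males Hdac5 had 60.7 ± 5.85 CPM in EE and 60.1 ± 3.16 in SH, with overlapping groups and a log2 fold change of 0.02 ± 0.06. The difference between the sexes was 0.26 ± 0.09 (adjusted p = 0.307 over all genes in the interaction fit). Hdac5 is a class IIa enzyme that leaves the nucleus on calcium signalling. The other 3 class IIa genes had fold changes below 0 in females: Hdac4 -0.09, Hdac7 -0.17 and Hdac9 -0.05.

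The class IIb and IV genes were all 3 higher in females, with a median log2 fold change of 0.23, which was the value of Hdac10 and was 0.12 without EE replicate 4 and 0.15 without SH replicate 1. Hdac6, a mostly cytoplasmic tubulin deacetylase, ran from 17.7 to 24.6 CPM in EE and from 14.7 to 23.7 in SH. Its 6 EE libraries all lay above the SH median of 16.7, and the groups overlapped. The fold change was 0.27 ± 0.11 (adjusted p = 0.475). Hdac10 had 0.23 ± 0.17 and Hdac11 0.01 ± 0.07. Only 2 of the 3 were higher without EE replicate 6 or SH replicate 3. In males the same 3 genes had a median of 0.00 and Hdac6 had -0.09 ± 0.08. Of the class I enzymes, the nuclear deacetylases of corepressor complexes, Hdac3 had 23.9 ± 1.80 CPM in female EE and 20.8 ± 3.18 in SH (n = 6 each). Its fold change was 0.20 ± 0.09 (adjusted p = 0.559), beside 0.02 ± 0.08 in males. Hdac1 had 0.11 ± 0.11 in females and -0.19 ± 0.11 in males.

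Among the lysine demethylases, Kdm6b, which removes H3K27 methylation and is known as an activity-responsive gene, had the largest fold change above 0 in females. It ran from 20.9 to 24.7 CPM in EE with a median of 22.1, and from 14.3 to 20.0 in SH with a median of 18. The groups did not overlap, and the log2 fold change was 0.36 ± 0.09 (adjusted p = 0.160). In males the EE libraries ran from 12.4 to 26.6 CPM and spanned the SH range of 12.9 to 19.7, with a fold change of 0.13 ± 0.18. Kdm2b, a CXXC-domain protein that brings a Polycomb complex to CpG islands, was lower in female EE (28.4 to 36.6 CPM) than in SH (34.6 to 40.8), and all 6 EE libraries lay below the SH median of 37.5. The fold change was -0.23 ± 0.07 (adjusted p = 0.246), beside -0.05 ± 0.07 in males. Kdm7a, a demethylase of H3K9 and H3K27, was higher in male EE, from 60.0 to 82.9 CPM with a median of 71.3, than in SH, from 58.6 to 66.3 with a median of 60.5. All but 1 of its EE libraries lay above the SH median, and the fold change was 0.21 ± 0.06 (adjusted p = 0.333). Kdm7a had 0.04 ± 0.05 in females. Among the 5 H3K4 demethylases none had an unadjusted p under 0.05 in either sex. Kdm5c had -0.09 ± 0.05 in females and 0.07 ± 0.06 in males, and Kdm1b 0.00 ± 0.09 and -0.12 ± 0.07.

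The H3K4 methyltransferases were higher in 6 of 8 genes in females, with a median log2 fold change of 0.05, and in 4 of 8 in males. Setd1a, a catalytic subunit that trimethylates H3K4 at promoters, had 12.4 to 17.3 CPM in female EE and 11.9 to 13.5 in SH. The EE median of 15.5 lay above every SH library. The fold change was 0.31 ± 0.09 (adjusted p = 0.242), beside 0.06 ± 0.10 in males. Setd7 had 0.10 ± 0.06 in females. Kmt2a had 0.05 ± 0.04 in females and 0.06 ± 0.04 in males, and Kmt2d 0.05 ± 0.05 and -0.06 ± 0.04.

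Of the other 10 SET-domain methyltransferases, Kmt5c, which trimethylates lysine 20 of histone H4 in heterochromatin, had the smallest p of the male members. It ran from 9.51 to 11.7 CPM in EE and from 7.70 to 9.72 in SH. All 6 EE libraries lay above the SH median of 8.84, and the lowest EE library lay just under the highest SH library. The log2 fold change was 0.30 ± 0.08 (adjusted p = 0.294). In females Kmt5c had 0.17 ± 0.11. Setd6 (2.24 to 4.32 CPM over the EE libraries of both sexes) had 0.23 ± 0.21 in females and -0.09 ± 0.16 in males. Setd2, which trimethylates H3K36, had 0.02 ± 0.06 and 0.06 ± 0.05.

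For DNA methylation, the 3 methyltransferases had fold changes at or below 0 in both sexes, and none had an unadjusted p under 0.05. With total count scaling 1 of 3 was above 0 in females, and with the size factors of DESeq2 1 of 3 was in males. Dnmt1 had -0.04 ± 0.06 in females and -0.01 ± 0.05 in males, and its male value turned to 0.02 without SH replicate 3. Dnmt3b, at 0.807 to 3.07 CPM, had -0.24 ± 0.24 and -0.19 ± 0.26. Of the dioxygenases, Tet3 had 149 ± 5.04 CPM in female EE and 142 ± 7.12 in SH. All 6 female EE libraries of Tet3 lay above the SH median of 139, with a fold change of 0.07 ± 0.04 (adjusted p = 0.689). Tet3 had 0.00 ± 0.05 in males, a value that total count scaling moved to -0.03. Tet1 had -0.02 ± 0.09 in females, turning to 0.02 without SH replicate 1, and 0.09 ± 0.06 in males.

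Among the remodellers, Smarca2 was lower in female EE. This gene encodes BRM, an alternative ATPase of the BAF complex, and is abundant in neurons. Female EE libraries ran from 254 to 321 CPM with a median of 269 and SH libraries from 307 to 329 with a median of 323. All but 1 of the EE libraries lay below every SH library, and the remaining one lay within the SH range. The log2 fold change was -0.21 ± 0.05 (adjusted p = 0.159). Males had 303 ± 25.0 CPM in EE and 314 ± 15.2 in SH, a fold change of -0.05 ± 0.05. Arid2, a subunit of the PBAF form, had -0.12 ± 0.05 in females (adjusted p = 0.421) and 0.05 ± 0.05 in males. Of the 12 BAF and PBAF genes 6 were higher in females and 4 in males, with medians of 0.00 and -0.01. In males Arid1b had 0.07 ± 0.04 and Smarcb1 -0.12 ± 0.07.

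Chd2 encodes a remodeller whose loss of 1 copy is known to cause epilepsy. In females the EE libraries ran from 162 to 172 CPM and the SH libraries from 175 to 197, with no overlap and a log2 fold change of -0.15 ± 0.04 (adjusted p = 0.218). In males the EE libraries ran from 161 to 190 CPM and the SH libraries from 151 to 166. All 6 male EE libraries lay above the SH median of 160, and the fold change was 0.12 ± 0.04 (adjusted p = 0.425). The difference of the 2 fold changes was -0.27 ± 0.06 (unadjusted p = 6.82e-05, adjusted p = 0.0948), the smallest p of any member in that fit. In that interaction fit 0 of 84 members were called against 1 of 15562 genes (0.00643%) by edgeR. DESeq2 called 92 genes there, Chd2 among them (adjusted p = 0.00122), and no other member. At an unadjusted p under 0.05 there were 8 members (9.52%; 8.98% of all genes): Chd2, Hdac5, Arid2, Hdac6, Kdm4c, Arid5b, Kdm5c and Smarca2. The female minus male value was above 0 in 2 of them and below 0 in 6, where the shares of all genes were 4.4% and 4.58%. Whatever their p, it was above 0 in 30 of 84 members, against 52.0% of all genes. Its median over all genes was 0.01, and 0.06 with total count scaling, under which the members were not counted. Of the 10 CHD genes 2 were higher in females and 6 in males. Chd6 had 0.05 ± 0.04 in females and 0.09 ± 0.04 in males, and Chd9 -0.07 ± 0.05 and 0.02 ± 0.04. The 4 ISWI and other SNF2-family genes lay between -0.06 and 0.05 in both sexes, with Smarcad1 at -0.06 ± 0.08 and Smarcal1 at 0.05 ± 0.06 in females. Of the other ARID-domain genes, Arid3b had 0.33 ± 0.17 in males, where the EE libraries ran from 19.9 to 38.1 CPM and the value was 0.16 without EE replicate 4, and 0.01 ± 0.08 in females. Arid5b had -0.09 ± 0.06 in females and 0.08 ± 0.05 in males. Arid5a, at 0.708 to 4.91 CPM, had 0.18 ± 0.25 and -0.16 ± 0.29.

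**Figure D3:**
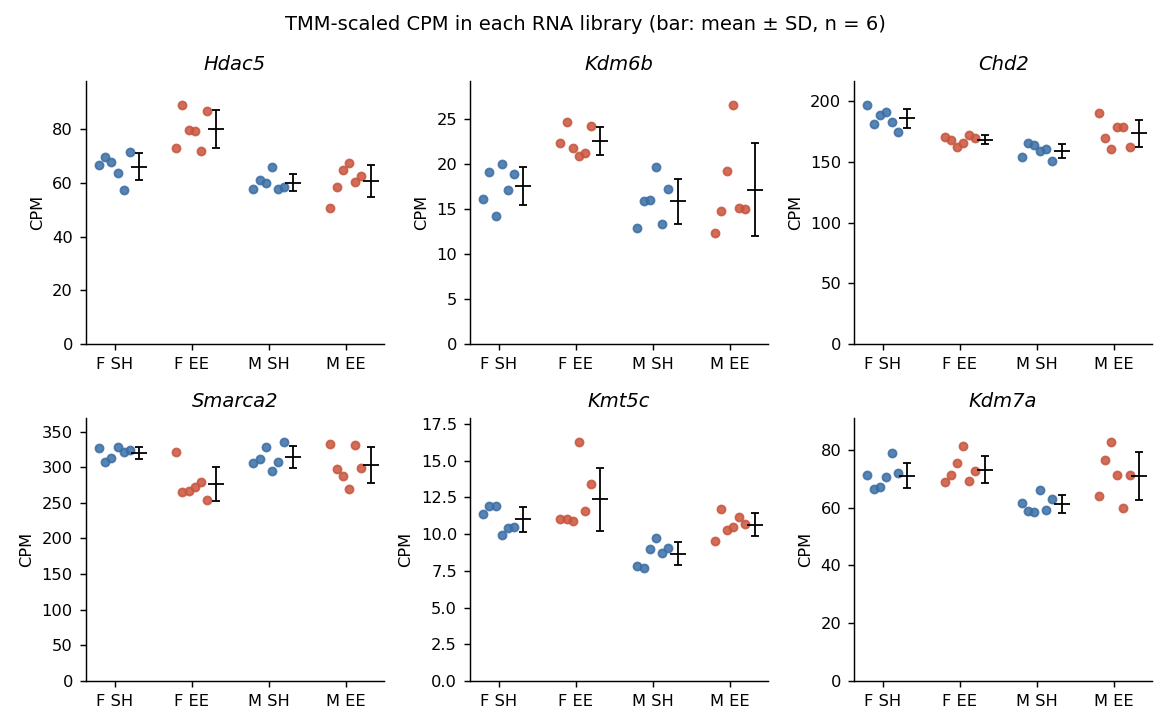
TMM-scaled CPM of 6 genes in each RNA library (points), with the mean and SD beside them (n = 6 per group); blue is SH, red EE, F female and M male, and axes start at 0. Hdac5 and Kdm6b separate upward and Chd2 downward in females only, while Chd2 is higher in male EE.

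Whether a member was called turned on the method in females. Of the 84 members, 77 of which had an adjusted p from DESeq2, 4 passed with that method, beside 121 of 14587 genes in all. They were Smarca2 (adjusted p = 0.00954), Hdac5 (0.0191), Chd2 (0.0197) and Kdm6b (0.0197). Markers of other cells moved with 1 library: SH replicate 2 had the highest sum of the female libraries for 5 non-neuronal lists. Its 8 astrocyte genes summed to 1546 CPM, against at most 1224 in any other female library. Its 8 oligodendrocyte genes summed to 376 CPM, against 139 to 252 in EE and at least 126 in the other SH libraries. The oligodendrocyte precursor, microglia and vascular lists reached 42.3, 22.5 and 74.3 CPM in it, against at most 29.8, 14.4 and 42.4 elsewhere. The 6 neuron genes summed to 7337 to 7820 CPM in females and 6869 to 7342 in males, no marker of any list was at 0 in all libraries of a sex, and none was called. Without SH replicate 2 Hdac5 had 0.29 (adjusted p = 0.0442) and Smarca2 -0.23 (0.045), and with non-neuronal markers as a covariate Hdac5 had 0.28 (0.0411). In males, oligodendrocyte genes summed to 96.2 to 248 CPM in EE and 115 to 151 in SH, with a median of 143 in each housing. The highest sum was that of EE replicate 4, against at most 170 in any other male library. By fold change 8 of 8 were higher in male EE, against 0 of 8 in females. Astrocyte genes summed to 861 to 1023 CPM in male EE and 815 to 928 in SH. With non-neuronal markers as a covariate, edgeR called 0 members in males. Unadjusted p was under 0.05 for 5 male members (5.95%), against 9.08% of all genes. Whether these cells account for the male values was not tested. In bulk nuclei, fewer cells of a type and less RNA per cell cannot be told apart.

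Genes that work with the members were read from 7 lists, and 0 of their genes were called in either sex. Of the 18 corepressor and Polycomb partners tested, 4 were higher in females (median log2 fold change -0.06) and 15 in males (median 0.04), or 10 in males with total count scaling. Of 13 other remodellers, 2 were higher in females (median -0.06) and 9 in males (median 0.03). Background shares of higher genes were those given above. Of 18 BAF partners outside the symbol rule, 10 were higher in females and 5 in males. Actl6b, the neuron-specific BAF53b subunit, had 36.7 ± 4.02 CPM in female EE and 31.2 ± 3.29 in SH (n = 6 each), a log2 fold change of 0.24 ± 0.08 (adjusted p = 0.341). Dpf3, another BAF subunit, had 8.98 ± 0.924 CPM in male EE and 11.0 ± 1.03 in SH, or -0.29 ± 0.09 (adjusted p = 0.36). Ehmt2, the H3K9 dimethyltransferase G9a, had 0.19 ± 0.07 in females (adjusted p = 0.455). Of 14 methyltransferases outside the rule 5 and 6 were higher in females and males, of 13 methyl-CpG binding and methylation genes 8 and 6, of 10 acetyltransferases 5 and 6, and of 7 sirtuins 4 and 2. Of the genes with the smallest p in each of the 7 lists, the others in females were Mbd6 (0.25 ± 0.09), Sirt7 (0.27 ± 0.12), Gatad2a (-0.19 ± 0.08), Kat8 (-0.21 ± 0.11) and Baz2b (-0.08 ± 0.04). In males they were Cecr2 (0.48 ± 0.16, at 4.03 CPM in EE), Hat1 (0.25 ± 0.10), Zbtb38 (0.10 ± 0.04), Rcor3 (0.10 ± 0.06), Smyd2 (-0.10 ± 0.06) and Sirt4 (-0.11 ± 0.08).

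Open chromatin at the members was measured over regions that the authors defined separately for each sex. Of the 974 female regions 867 (89.0%) overlapped a male region of the same gene, and of the 1057 male regions 612 (57.9%) overlapped a female one. In female ATAC 0 of 973 regions that passed the count filter were called by edgeR, against 78 of 164926 (0.0473%). DESeq2 called 1 of the 973 member regions, 387 of which had an adjusted p, beside 122 of 164926 regions in all. With total count scaling edgeR also called 1 member region. At an unadjusted p under 0.05 there were 55 (27 higher and 28 lower), or 5.65%, against 8.01% of all regions (4.53% higher and 3.48% lower). The count was 30 (3.08%) without SH replicate 3 (6.1% of all regions) and 87 (8.94%) without SH replicate 1 (10.2%). In male ATAC 0 of 1057 were called against 0 of 192834 (0.0%), and 49 (17 higher and 32 lower), or 4.64%, had an unadjusted p under 0.05, against 4.54% (2.62% higher and 1.92% lower). Without SH replicate 6 the count was 76 (7.19%), against 6.62%. Regions higher in EE made up 39.3% of the member regions in females (48.3% of all) and 42.0% in males (49.7% of all). At gene starts 41 of 126 member regions were higher in females and 16 of 94 in males. Regions at the starts of all genes tested for RNA were higher in 29.9% and 29.2%. A start region was found for 78 genes in females and 79 in males. Dnmt1, Hdac7, Kdm4c, Tet1 and Tet3 had none in either sex and Chd3 had none in females. The start was taken as the upstream end of the Ensembl span, so open regions at starts inside a gene were not counted as start regions.

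**Figure D4:**
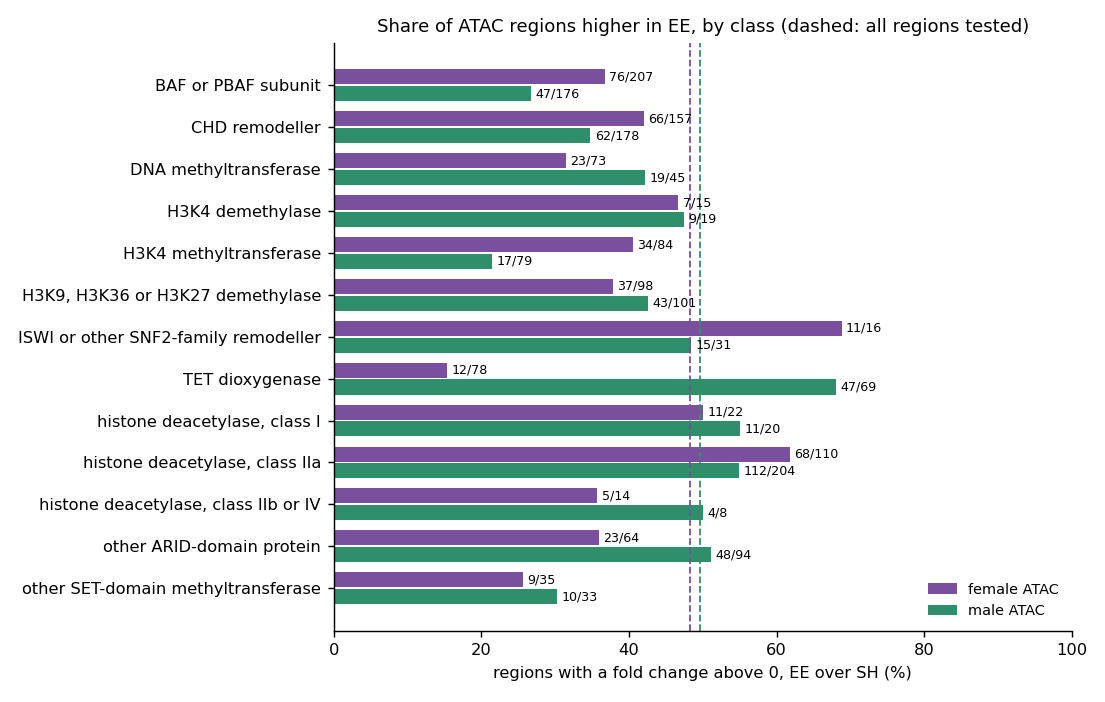
Percentage of ATAC regions with a log2 fold change above 0 (EE over SH) in each class, in females (purple) and males (green), with the number higher and the number tested beside each bar; dashed lines are the shares over all regions tested. TET regions stand at 15.4% in females and 68.1% in males.

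The classes were read by how many of their regions were higher, since none was called. Regions of the TET genes were higher in 12 of 78 in females, with a median log2 fold change of -0.12, and in 47 of 69 in males, with a median of 0.06. In females 7 of 53 regions of Tet3, 1 of 12 of Tet2 and 4 of 13 of Tet1 were higher. In males 15 of 33, 26 of 29 and 6 of 7 were. Tet3 gave 53 of the 78 female regions, and they summed to 201, 213 and 219 CPM in EE and 222, 226 and 251 in SH, without overlap. The same held, in that direction, for 19.5% of genes with 40 or more regions. No TET region in females had an unadjusted p under 0.05, and 1 in males did. Whether the sexes differ in open chromatin was not tested, because the regions of the 2 tables are not the same. H3K4 methyltransferase regions were higher in 34 of 84 in females and in 17 of 79 in males, where 9 had an unadjusted p under 0.05, all lower (11.4%, against 4.54% of all male regions). Kmt2e, which encodes a SET-domain relative of the MLL proteins, gave 4 of these 9, and 1 of its 23 male regions was higher. Its summed male CPM ran from 229 to 247 in EE with a median of 243, and from 241 to 271 in SH with a median of 257. The male region with the smallest p of all members lay in Kmt2e at chr5:23455228-23455783, with 0.763 ± 0.102 CPM in EE (n = 6) and 1.15 ± 0.249 in SH (n = 7). Its log2 fold change was -0.58 ± 0.19 (unadjusted p = 0.00396, adjusted p = 1.0). The next lay in Kmt2c at chr5:25420384-25421203, at 2.14 to 2.43 CPM in EE and 2.51 to 3.33 in SH without overlap, with -0.34 ± 0.11 (adjusted p = 1.0). Groups did not overlap in 0.123% of all male regions. BAF and PBAF regions were higher in 76 of 207 in females and 47 of 176 in males, and those of Smarcd3 in 0 of 16 in females. Under 2 other scalings of the libraries the class medians kept these directions, as did those of the TET regions, and Smarcd3 had 2 of 16 higher in females with total count scaling.

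Hdac9 had the most regions of the 84 genes in males (131), and among the 11 deacetylases it had the highest share of higher regions in females. It lies at chr12:34047580-34917095 on the minus strand and spans 870 kb. It was singled out after its values were seen, so the values are a description without a test of their own. In females 51 of 55 regions were higher in EE, with a median log2 fold change of 0.31. An unadjusted p under 0.05 was found in 16 of the 55, all higher, against 8.01% of all female regions. The summed CPM of the Hdac9 regions was 277, 301 and 268 in the EE libraries and 243, 249 and 198 in the SH libraries. Every EE library lay above every SH library, as in 7.74% of 478 genes with 40 or more regions (in males 0.0% of 565 genes did so, and 0.177% the other way). Among these 478 genes the median of Hdac9 ranked 2, the medians running from -0.39 to 0.34 around -0.05. In males 88 of 131 regions were higher, with a median of 0.07. At an unadjusted p under 0.05 there were 8 of the 131, all higher, against 4.54% of all male regions. The rank of Hdac9 was 18 of 565 genes, whose medians ran from -0.15 to 0.14. The summed male CPM overlapped, from 488 to 615 in EE and from 467 to 645 in SH. Leaving out 1 female library moved the median between 0.21 and 0.36 and leaving out 1 male library moved it between 0.03 and 0.11.

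The female Hdac9 region with the smallest p, chr12:34527685-34529759, holds the internal start printed above. Its EE libraries had 34.2, 35.2 and 32.8 CPM and its SH libraries 28.0, 29.9 and 19.8, without overlap, as in 12.8% of all female regions. The log2 fold change was 0.40 ± 0.11 (unadjusted p = 0.000827, adjusted p = 0.194), and the lowest SH library was replicate 3. Without that library it was 0.24 (adjusted p = 0.82). The region over the first Hdac9 start, which has no CG dinucleotide in the printed bases, was small: 1.85 to 3.06 CPM in female EE and 1.75 to 2.53 in SH, with 0.15 ± 0.27. Nuclear RNA of Hdac9 had 587 ± 48.9 CPM in female EE and 607 ± 42.9 in SH (n = 6 each), a fold change of -0.05 ± 0.06, and 724 ± 51.5 and 705 ± 43.9 in males, or 0.04 ± 0.05. RNA and ATAC came from different libraries. Of the other class IIa genes, Hdac4 had 11 of 30 regions higher in females and 21 of 54 in males, Hdac5 2 of 12 and 1 of 9, and Hdac7 4 of 13 and 2 of 10.

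**Figure D5:**
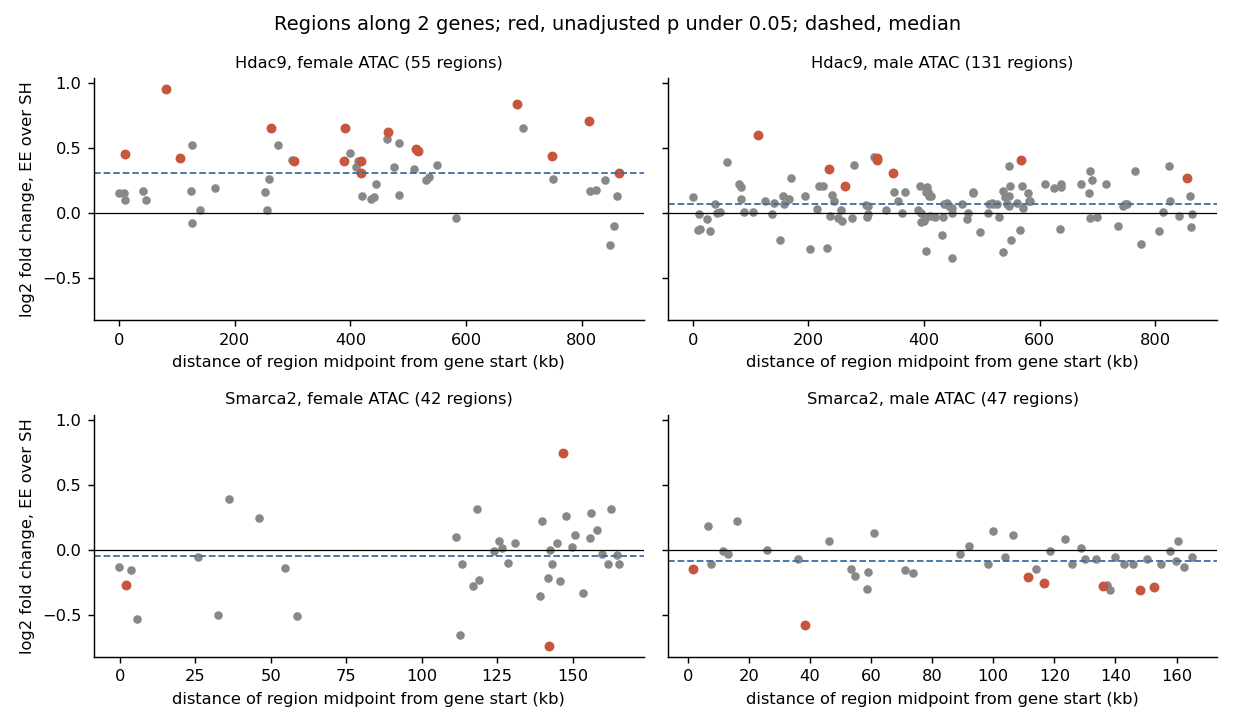
Log2 fold change of EE over SH for each ATAC region of Hdac9 (top) and Smarca2 (bottom) against the distance of its midpoint from the gene start in kb, in females (left) and males (right); red points have an unadjusted p under 0.05 and dashed lines are medians. Regions of Hdac9 lie mostly above 0 along the whole span in females (51 of 55), while 36 of 47 male Smarca2 regions lie below 0.

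Smarca2 was lower in EE at its start in both tables, with no call. It was also chosen after its values were seen. In males the start region, chr19:26603225-26610108, which contains the printed stretch, had 76.3 to 82.1 CPM in EE with a median of 79.3, and 77.3 to 96.7 in SH with a median of 88.5. All 6 EE libraries lay below the SH median, and the groups overlapped. The log2 fold change was -0.15 ± 0.05 (unadjusted p = 0.00907, adjusted p = 1.0). In females 2 regions lay at this start. The one over the start, chr19:26603948-26605663, had 54.5, 67.9 and 62.6 CPM in EE and 57.3, 75.8 and 69.0 in SH, with -0.13 ± 0.10. The one after it, chr19:26605755-26608554, had 34.0, 35.8 and 33.5 CPM in EE and 38.4, 44.4 and 42.0 in SH, without overlap, against 12.8% of all female regions whose groups do not overlap. Its fold change was -0.27 ± 0.10 (unadjusted p = 0.00962, adjusted p = 0.43). Over the whole gene, 18 of 42 female regions and 11 of 47 male regions were higher, with medians of -0.05 and -0.09. In males 7 of 47 Smarca2 regions had an unadjusted p under 0.05, all lower, against 4.54% of all male regions. A median as low or lower was found in 27 of 565 genes. Females had such regions in both directions. Beside the one after the start, chr19:26746950-26747187 was lower, with -0.74 ± 0.31 (unadjusted p = 0.0177, adjusted p = 0.497). The region chr19:26751494-26751830 was higher, at 1.55 ± 0.176 CPM in EE and 0.932 ± 0.293 in SH (n = 3 each) without overlap. Its fold change was 0.74 ± 0.36 (unadjusted p = 0.0398, adjusted p = 0.597). Regions at gene starts were lower in general, as given above.

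For the other genes near the threshold in RNA, the start regions gave values of either sign. Hdac5 had 8.05, 7.78 and 7.92 CPM in female EE and 6.67, 8.99 and 8.25 in SH at its start (chr11:102230044-102230658), the 3 EE libraries lying within the SH range, with -0.01 ± 0.16. Kdm6b had -0.22 ± 0.10 in females (53.0 to 57.6 CPM in EE, 56.3 to 68.4 in SH, unadjusted p = 0.0255, adjusted p = 0.54) and -0.01 ± 0.18 in males. Setd1a had -0.27 ± 0.12 in females (unadjusted p = 0.0253, adjusted p = 0.539) and -0.03 ± 0.16 in males, and Chd2 0.08 ± 0.18 and 0.09 ± 0.08. Kmt5c had -0.13 ± 0.10 and 0.06 ± 0.11. Across genes with a start region, the fold changes of that region and of RNA had a Spearman correlation of -0.29 in females (78 genes) and 0.19 in males (79 genes), a description over genes that share libraries.

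The remaining regions with the smallest p in females lay in Chd1, Smarcd3 and Hdac11. The Chd1 region, chr17:16339765-16340446, had 11.3, 14.7 and 13.2 CPM in EE and 8.96, 8.35 and 7.81 in SH, with 0.64 ± 0.15 (adjusted p = 0.0622). It lies beyond the RefSeq end of Chd1, as do 27 of the 31 female regions of that gene, so its place in Chd1 rests on the Ensembl span. With DESeq2 it was called (0.65, adjusted p = 0.0362). The Smarcd3 region, chr5:24613008-24613631, in a BAF subunit gene, had 1.56, 1.12 and 1.28 CPM in EE and 1.83, 3.45 and 3.05 in SH, with -1.06 ± 0.29 (adjusted p = 0.157). Without SH replicate 1 it had -1.29 (adjusted p = 0.0437), and the Chd1 region had 0.70 (0.0405). The Hdac11 region, chr6:91173904-91174055, had 1.39 to 2.07 CPM in EE and 0.50 to 0.861 in SH, with 1.36 ± 0.38 (adjusted p = 0.174). The male Hdac9 region with the smallest p, chr12:34803828-34804009, had 0.60 ± 0.21 and the male Smarca2 region, chr19:26752441-26753804, -0.31 ± 0.11 (adjusted p = 1.0 for both).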

How the data were processed

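Nuclear RNA-seq and ATAC-seq libraries of sorted cortical neurons were read from 4 deposited tables of raw counts per gene or region, with no normalization by the authors. The submitters' processing notes name build mm10, MACS2 2.1.1, DiffBind 3.2.2, bedtools, SAMtools 1.3.1, STAR 2.5.4, edgeR and DESeq2 1.16.1. The sources used here do not give the read counter, its strand setting or how regions were merged. Without a stated strand setting, reads of a member and of an overlapping antisense gene cannot be told apart. Coordinates are printed as deposited, without knowing if starts were counted from 0 or 1. The header of the male RNA counts lacks 1 column name, and columns were matched by position. Of 53379 gene IDs 53274 had a symbol.

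Each table was fitted whole in edgeR 4.0.16 (R 4.3.3) with TMM scaling, the default low-count filter (14587 and 14597 genes, 164926 and 192834 regions kept), a robust quasi-likelihood F test and Benjamini-Hochberg adjustment over the table. An adjusted p under 0.05 was a call. CPM are TMM-scaled, errors beside them SD, and the SE of a fold change on the log2 scale was taken as its size over the square root of F. The interaction was fitted on all RNA libraries. The script was tested on simulated data. Alternatives were DESeq2 1.42.0, limma-voom 3.58.1, other scalings and filters, a non-neuronal marker covariate, the replicate block and each library left out.

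The members and lists were chosen with earlier results of these data known. Named genes are, in each of 13 classes, the 2 members with the smallest p in each sex, and named regions the 4 with the smallest p in each ATAC table and those nearest the start of a named gene. Hdac9, Smarca2, Kmt2e and TET regions, and genes named for their level, were chosen after their values were seen.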

Additional observations from a re-analysis of the deposited data

Results flagged for a closer look

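Of 122 groups of 4 to 10 libraries scanned for the named genes and regions, 11 held a library farther from the others than Dixon's test allows at the 95% level; chance alone flags about 1 in 20 groups. In female RNA, Arid2 had 74.4 CPM in EE replicate 1 against 66.1 to 68.6 in the other EE libraries, and Arid5a had 4.91 CPM in SH replicate 2, the library highest in glial and vascular markers, against 2.03 to 3.09. Hdac10 (9.59 CPM against 5.87 to 7.07) and Setd6 (4.32 against 2.41 to 3.02) were both high in female EE replicate 4, and Setd1a had 13.5 CPM in female SH replicate 5 against 11.9 to 12.4. In male RNA, Dnmt3b had 3.07 CPM in EE replicate 5 against 1.21 to 1.51, and Hdac11 had 37.2 in the same library against 41.0 to 42.9. Arid1b had 429 CPM in EE replicate 1 against 377 to 396, Setd2 133 in SH replicate 4 against 121 to 126, and Tet1 18 in SH replicate 3 against 15.7 to 16.5. In male ATAC the Smarca2 region starting at 26752441 had 3.39 CPM in SH replicate 6 against 4.14 to 4.39 in the other SH libraries.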

How the results depend on the processing

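The named genes and regions kept their direction and their side of the threshold in 478 of 494 recomputed values and in 745 of 762 with 1 library left out. Counts of calls moved more, and the cause was not tested. In female RNA, DESeq2 called 121 of 14587 genes (4 of 84 members). With no low-count filter 168 of 33545 genes were called (3 of 84 members: Hdac5, Kdm6b and Smarca2). The non-neuronal marker covariate gave 40 of 14587 (1 of 84 members) and total count scaling 1. In male RNA, DESeq2 called 49 of 14597 genes and no low-count filter 136 of 36188 (1 of 84 members, Kdm7a, adjusted p = 0.0121). The covariate gave 10 of 14597, and total count scaling stayed within 1.5 times. In female ATAC, DESeq2 called 122 of 164926 regions (1 of 973 member regions) and total count scaling 1 of a member. In male ATAC, DESeq2 called 7. In the interaction DESeq2 called 92 genes (1 member, Chd2, adjusted p = 0.00122) and total count scaling 0. Leaving out 1 library gave 0 to 85 female and 0 to 11 male genes, 22 to 333 female and 0 to 3 male regions, and 0 to 39 interaction genes, with 0 to 2, 0 to 0, 0 to 2, 0 to 0 and 0 to 1 of members. Chd2 in the interaction was called without female SH replicate 2 (adjusted p = 0.0253) or SH replicate 6 (0.0473), and female Smarca2 without EE replicate 1 (0.0422). Male Tet3 turned to -0.01 with the covariate and -0.03 with total count scaling. With 1 library left out, values crossed 0 for female Tet1 (-0.07 to 0.02) and male Tet3 (-0.03 to 0.03), Dnmt1 (-0.04 to 0.02) and Smarca1 (-0.04 to 0.00).

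Deviations of EE and SH libraries with the same number in their titles had correlations of 0.0362 to 0.306 in female RNA and -0.0299 to 0.226 in male RNA. In female ATAC these were -0.0714 to 0.0703 and in male ATAC -0.103 to 0.171. In that order 3 of 6, 2 of 6, 1 of 3 and 2 of 6 EE libraries correlated best with their own number. The main fits took no pairs. In female RNA the column names of the counts carry matching numbers in EE and SH. In male RNA they do not, so the male RNA check and the blocks with male RNA joined libraries whose column numbers differ. Whether the female RNA libraries were paired cannot be told from the labels. With the replicate block 95 of 14587 female genes were called (2 of 84 members: Hdac5, adjusted p = 0.0156, and Smarca2, 0.026). It also called 3 male genes, 34 female regions, 1 male region and 28 interaction genes. In female ATAC 3 libraries a group limit what can be seen.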
